A study of Mus musculus with 3 samples.

Results

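Superficial cells of the uninjured mouse corneal epithelium are described here as 1710 cell barcodes of 13270 in the library of an uninjured wild-type mouse, and of 25971 in the whole series. They were chosen from the measured counts. A barcode was taken when it had at least 5000 UMIs (unique molecular identifiers, each a counted RNA molecule) with at most 20% from mitochondrial genes. It also had Krt5 plus Krt12 at 100 or more per 10000 UMIs, at least 4 of Psca, Muc4, Asprv1, Hopx, Nccrp1, Ly6g6c and Cysrt1 with a UMI, and fewer than 3 of 7 cell cycle genes with a UMI. Of the uninjured barcodes, 9290 passed the depth and mitochondrial filters, 8447 of these the keratin filter, and 7059 the cell cycle filter. Superficial cells were 24.2% of those 7059 (exact 95% interval 23.2 to 25.2%) and 12.9% of all barcodes.

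The study profiled cornea and limbus, the rim between cornea and conjunctiva, by 10x Genomics droplet sequencing in 3 wild-type libraries from 1 mouse each. One mouse was uninjured, one was injured with nitrogen mustard (NM, an alkylating agent) and given saline, and one was injured with NM and given losartan, an angiotensin receptor blocker. Age, sex, strain, the losartan dose and the time after injury are not given here. Most of the conjunctiva had been dissected away, and cells were released with liberase and trypsin. With 1 library and 1 mouse per group no difference could be tested, and every interval is a 95% interval for counting error only.

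The corneal epithelium is a stratified sheet. Basal cells are held to the basement membrane by hemidesmosomes and express Krt14, and cells move upward through intermediate wing cells to the flat superficial cells. Superficial cells carry tight junctions, surface ridges called microplicae and a coat of membrane mucins that holds the tear film, and they are shed into the tears. Krt12, with its partner keratins, marks corneal rather than conjunctival or skin epithelium.

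The label was checked against marker lists, which were chosen with earlier results of these data known. Of 30 surface epithelium genes that the rule did not read, 23 were measured, that is, at 10 CPM (counts scaled to a common total) or more in superficial or in the other corneal epithelial cells. 15 of these were at least 2-fold higher in superficial cells and 1 lower, against 5.93% and 12.6% of all measured genes. Krt78, Muc20, Cldn23, Cnfn, Krt4 and Tgm1 reached the minimum only in superficial cells, so their direction was fixed by it. Krt12, a given marker, was read by the rule and checks nothing: thinned to 5000 UMIs, all 1710 members had it, at a median of 217 and quartiles of 168 and 262 UMIs. The conjunctival keratins went against the label. Of 16 conjunctival and goblet cell markers, Krt13, Krt19 and Krt4 were higher, 3 of the 4 measured, and none was lower. Krt13 and Krt4 are on both lists and were also counted among the 15 above. Krt19 and Krt4 reached the minimum only in superficial cells, so here too their direction was fixed by it. The 16 summed to 2514 CPM, against 107 and 75.6 in the intermediate and basal ranges described below. 5 of the 16 had 0 UMIs, among them the goblet mucin Muc5ac and the trefoil factors Tff1, Tff2 and Tff3. Stromal markers summed to 96.5 CPM, with 239 in the intermediate and 71.1 in the basal range, against 80319 in stromal cells of the same library. Immune markers summed to 6.20 CPM and endothelial, mural and Schwann cell markers to 4.60, and their part in the results was not tested. The library shared 21 barcode sequences with the saline and 28 with the losartan library, of which 1 and 5 were superficial cells. A simulated-doublet score marked 259 members (15.1%) and 12.5% of the other corneal epithelial cells.

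The genes of the rule come first, as the values that chose the cells and not as findings. Psca, a small protein anchored to the membrane in the Ly6 family (chr15:74714839-74717069, GRCm38), was at 2889.6 CPM in superficial, 14.4 in intermediate-range and 14.01 in basal-range cells. At 5000 UMIs per cell Psca had a median of 1 and quartiles of 0 and 15 UMIs in superficial cells. The shares of cells with a Psca UMI were 52.9%, 7.44%, 7.07% and 6.88% in superficial, intermediate-range, basal-range and stromal cells. Outside superficial cells Psca was seen in about the same share of cells as in stromal cells, but its level in stromal cells was higher, at 127 CPM. Whether these UMIs came from free RNA in the droplets was not tested. Stromal reference cells were 473 barcodes with low keratin and at least 3 of Kera, Lum, Dcn, Col1a1 and Col1a2, and 378 of them were deep enough to thin. The intermediate and basal ranges are the lower and upper 50% of the other 5349 corneal epithelial cells by a score of Krt14, Krt15, Itgb4, Itga6, Col17a1 and Lamb3, and are ranges, not types.

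Asprv1, an aspartic protease of stratified epithelia (chr6:86628164-86629710), was at 6001 CPM in superficial, 43.3 in intermediate-range and 39.6 in basal-range cells, with a median of 11 and quartiles of 1 and 49 UMIs at equal depth. Muc4 (chr16:32735886-32782391), a large membrane mucin, was at 1247 CPM in superficial, 26.1 in intermediate-range and 8.60 in basal-range cells. Hopx, an atypical homeodomain protein (chr5:77086988-77115121), was at 1909.8 CPM in superficial, 53.8 in intermediate-range and 19.7 in basal-range cells. Ly6g6c (chr17:35065388-35070050), another Ly6 family member, was at 997 CPM in superficial, 45.5 in intermediate-range and 9.01 in basal-range cells. Muc4, Hopx and Ly6g6c thus stood higher in the intermediate than in the basal range, whereas Psca and Asprv1 had nearly the same level in both. Nccrp1 (chr7:28543596-28547254) was at 501 CPM in superficial, 2.71 in intermediate-range and 3.35 in basal-range cells, and Cysrt1 (chr2:25238818-25242452) at 276 CPM in superficial, 2.15 in intermediate-range and 2.16 in basal-range cells. For Nccrp1 and Cysrt1 the shares of intermediate-range cells with a UMI at 5000 were 1.68% and 1.01%, against 1.59% of stromal cells for each. Krt12, the corneal type I keratin (chr11:99415666-99422259), was at 42339 CPM in superficial, 34571 in intermediate-range and 21936 in basal-range cells, and Krt5, a type II keratin of the whole epithelium (chr15:101707070-101712898), at 7530.1 CPM in superficial, 6668 in intermediate-range and 4746 in basal-range cells.

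The stretches of 250 bases before the RefSeq start of Asprv1, Muc4 and Krt13 and of the corneal keratin Krt12 are shown because they carry the description of the superficial cells. That of Asprv1 ends inside the gene as annotated above, which starts at 86628164. The stretches come from RefSeq on GRCm38.p6, written 5′ to 3′ in the direction of the gene, with CACCC and its reverse complement GGGTG, the core bound by KLF factors, in capitals.
Asprv1 (chr6:86627924-86628173, plus strand): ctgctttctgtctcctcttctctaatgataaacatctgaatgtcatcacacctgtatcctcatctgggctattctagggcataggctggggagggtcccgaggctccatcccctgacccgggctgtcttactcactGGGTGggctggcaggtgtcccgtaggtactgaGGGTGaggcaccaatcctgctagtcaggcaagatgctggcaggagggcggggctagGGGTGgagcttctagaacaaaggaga
Muc4 (chr16:32735636-32735885, plus strand): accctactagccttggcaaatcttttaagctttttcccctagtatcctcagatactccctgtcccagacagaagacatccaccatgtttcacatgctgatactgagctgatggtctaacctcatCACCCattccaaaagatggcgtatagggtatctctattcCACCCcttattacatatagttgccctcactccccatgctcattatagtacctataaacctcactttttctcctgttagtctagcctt
Krt13 (chr11:100121567-100121816, minus strand): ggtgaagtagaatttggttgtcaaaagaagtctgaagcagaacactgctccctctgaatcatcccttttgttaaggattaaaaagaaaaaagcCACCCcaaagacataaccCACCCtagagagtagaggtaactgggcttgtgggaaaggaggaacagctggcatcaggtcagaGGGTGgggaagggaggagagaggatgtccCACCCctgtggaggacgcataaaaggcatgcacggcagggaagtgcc
Krt12 (chr11:99422260-99422509, minus strand): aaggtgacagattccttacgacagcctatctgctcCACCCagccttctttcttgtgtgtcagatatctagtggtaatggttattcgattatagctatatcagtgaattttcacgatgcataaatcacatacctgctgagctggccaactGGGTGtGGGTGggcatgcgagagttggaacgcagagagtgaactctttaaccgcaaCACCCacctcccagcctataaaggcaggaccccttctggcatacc
Among the 7 surface genes and the 12 genes with the highest ratios below, 15 of 19 were in the table, and 9 of these had a stretch whose start lay within 100 bases of the annotated start of the gene. The others were left out. CACCC or GGGTG was in 6 of these 9, in 2 of the 3 matched among the 12 genes with the lowest ratios, and in 52.0% of all 32851 stretches of this length. AGGAAG or CTTCCT, a motif of ETS factors such as Elf3, was in 6 of 9, in 1 of 3 and in 29.5% of all. TGANTCA (AP-1) was in 1 and 0 of the same genes and in 6.75% of all. CATTCC or GGAATG (TEAD) was in 2 and 1, and in 12.6% of all. AACNGGTT (GRHL) was in none of them and in 0.983% of all. Both strands were searched, matches of different motifs may overlap, and a match describes letters, not a bound site.

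Cells divided unevenly by how many of the 7 genes they had. With 0 to 3 of the genes there were 1551, 2021, 1204 and 573 cells, and with 4 to 7 there were 375, 250, 238 and 847. The counts thus had a low point at 5 and 6 genes and a second high point at all 7. Depth differed as well: superficial cells had a median of 23996 UMIs (range 5040 to 100574) and the others 13909. When every cell was thinned to 5000 UMIs, 1203 cells (17.0%) still had 4 or more, and 569 had all 7, against 222 with 6 and 186 with 5.

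**Figure D1:**
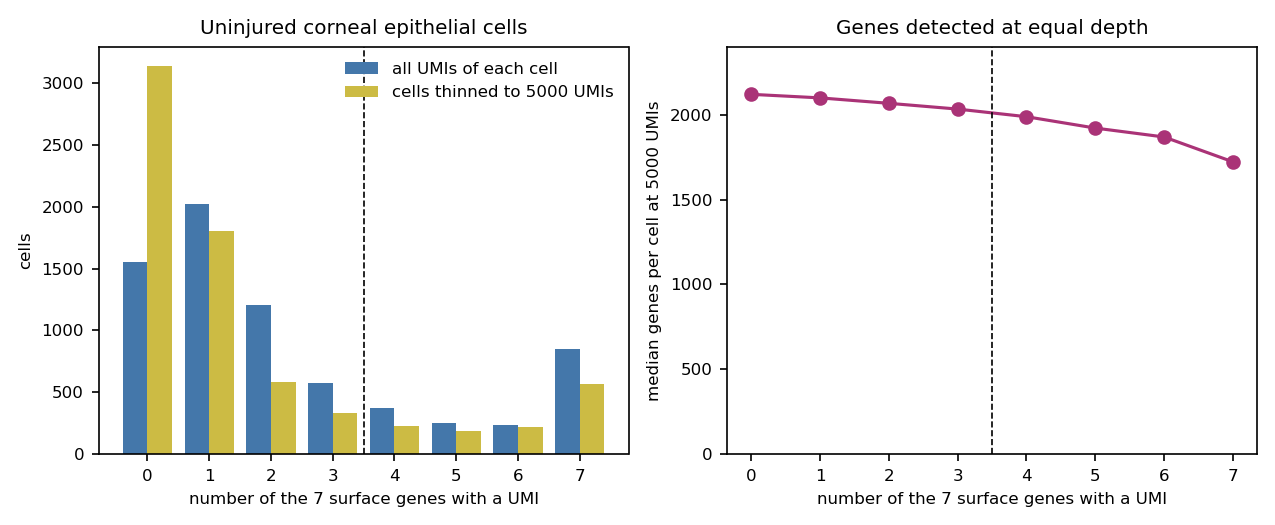
Left, uninjured corneal epithelial cells (y axis, number of cells) by the number of the 7 surface genes with a UMI (x axis), with all UMIs of each cell or after thinning to 5000 UMIs. Right, the median number of genes detected per cell at 5000 UMIs. The dashed line marks the threshold of 4 genes, above which the cells are the superficial cells. Both counts of cells rise again at 7 genes, and genes per cell fall from 2121 at 0 to 1723 at 7.

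The cells just inside and just outside the threshold differed by degree. From 3 to 4 of the 7 genes Krt13 was at 223 and 399 CPM, Krt6b at 467 and 1008, Mal at 1591 and 2771, and Krt14 at 917 and 470.3. Median UMIs were 16345 and 19902. A further 182 barcodes with 4 or more of the genes failed only the cell cycle filter, 278 only the depth filter and 43 only the keratin filter. Those 43 had Krt12 at 3438 CPM, with Krt13 at 5272, Krt4 at 1248, Krt19 at 974 and Krt7 at 474. Members had Krt4 at 52.7 and Krt19 at 73.3 CPM.

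Superficial cells, as selected, were deep in UMIs but narrow in what they expressed. The rule asks for UMIs of the surface genes, which deeper cells reach more easily, so this depth is not independent of the selection. Their share was 24.2% in the main setting and 17.0% with the rule on cells thinned to 5000 UMIs. How much of the depth the rule itself sets was not tested. At 5000 UMIs superficial cells had a median of 1830 genes (quartiles 1714 and 1951), against 2105 in the intermediate and 2072 in the basal range. The 20 most abundant genes held 23.7% of their UMIs, against 17.4% and 15.9%, and 179 genes made up 50%, against 288 and 284. Mitochondrial UMIs were 1.03% in the median superficial cell and 1.47% in the others. Of the superficial cells, 186 had over 50000 UMIs, and 7 of the others did.

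Krt12 took the largest share of superficial UMIs, 4.23%. It was followed by Tmsb4x, which binds actin monomers, at 2.63%, the calcium-binding S100a6 at 2.27% and the nuclear RNA Malat1 at 2.03%. The fifth was Gsto1, a glutathione transferase of the omega class, at 16912 CPM against 2202 in the basal range, where it ranked 63. Mal, a membrane protein of apical transport, was at 7881 CPM and ranked 10, against 1039 in the intermediate and 266 in the basal range. Aldh3a1, the abundant corneal aldehyde dehydrogenase, went the other way. It was at 7478 CPM in superficial, 13016 in intermediate-range and 14244 in basal-range cells.

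Against the other corneal epithelial cells, 491 of 8285 genes with at least 10 CPM on either side were at least 2-fold higher on the CPM + 5 scale (5.93%) and 1044 at least 2-fold lower (12.6%). The median gene stood at a log2 ratio of -0.39, and every ratio below stands beside it. With centring by the median of ratios (-0.36) the split was 801 higher and 405 lower, and 66.4% of the genes past 2-fold were higher in place of 32.0%. Against the intermediate range alone 5.13% were higher and 10.3% lower, and against the basal range 7.36% and 15%. With the same centring the counts of 425 to 856 became 713 to 241 there, and 609 to 1245 became 923 to 611 against the basal range. Since the cells were chosen from the same counts, all of these are descriptions.

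Among the 12 genes with the highest ratios outside the rule were keratins. Krt13 (chr11:100117327-100121566), a type I keratin of wet stratified epithelia, was at 2366 CPM in superficial, 78.3 in intermediate-range and 36.5 in basal-range cells, which is 41.5-fold (95% interval 40.3 to 42.8) the level in all other cells. It had a median of 4 and quartiles of 0 and 18 UMIs at equal depth, so at least 25% of the cells had none there. Krt6b (chr15:101676023-101680287), a type II keratin, was at 4761 CPM in superficial, 203 in intermediate-range and 59.3 in basal-range cells, with a median of 22 and quartiles of 7 and 39 UMIs. Krt6b is nearly identical in sequence to Krt6a, at 4767 CPM in superficial, 723 in intermediate-range and 217 in basal-range cells, and how reads were split between them is not stated, so both values are uncertain.

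A second set among the 12 belongs to the cell surface and to defence. Muc20, a membrane mucin, was at 119 CPM in superficial, 2.60 in intermediate-range and 1.04 in basal-range cells. The Muc20 and Muc4 genes overlap on opposite strands of chromosome 16, and whether counting used the strand is not stated, so reads of the shared stretch could belong to either. Pglyrp1, a secreted protein that binds bacterial peptidoglycan, was at 1207 CPM in superficial, 39.5 in intermediate-range and 28.1 in basal-range cells. Ifitm1, an interferon-induced membrane protein, was at 1564 CPM in superficial, 50.7 in intermediate-range and 92.4 in basal-range cells, and Ifit1bl1, of the interferon-induced tetratricopeptide family, at 456 CPM in superficial, 2.07 in intermediate-range and 2.77 in basal-range cells. H60c, a ligand of the lymphocyte receptor NKG2D, was at 347 CPM in superficial, 17.7 in intermediate-range and 10.9 in basal-range cells. Enpp3, a nucleotide-cleaving enzyme of the cell surface, was at 176 CPM in superficial, 6.06 in intermediate-range and 2.61 in basal-range cells. Pglyrp1 was in 73.7% of superficial cells at 5000 UMIs and Ifit1bl1 in 28.2%. The 50% of Ifit1bl1 UMIs from its highest cells lay in 77 cells.

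The other 4 were Prss27, a serine protease, at 197 CPM in superficial, 4.70 in intermediate-range and 2.005 in basal-range cells, and Serpinb11, of the serpin family, at 396 CPM in superficial, 22.8 in intermediate-range and 5.61 in basal-range cells. Arg1, the arginase that cleaves arginine to ornithine and urea, was at 266 CPM in superficial, 17.6 in intermediate-range and 3.86 in basal-range cells. Gm9573 was at 604 CPM in superficial, 29.8 in intermediate-range and 8.58 in basal-range cells. The ratios of the 12 genes to all other cells ran from 21.7-fold (95% interval 21.1 to 22.3) for Ifitm1 to 188-fold (95% interval 163 to 218) for Ifit1bl1. All 12 were also above the intermediate range. Muc20, Ifit1bl1, Enpp3 and Prss27 reached 10 CPM only in superficial cells, so their direction was fixed by the minimum.

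**Figure D2:**
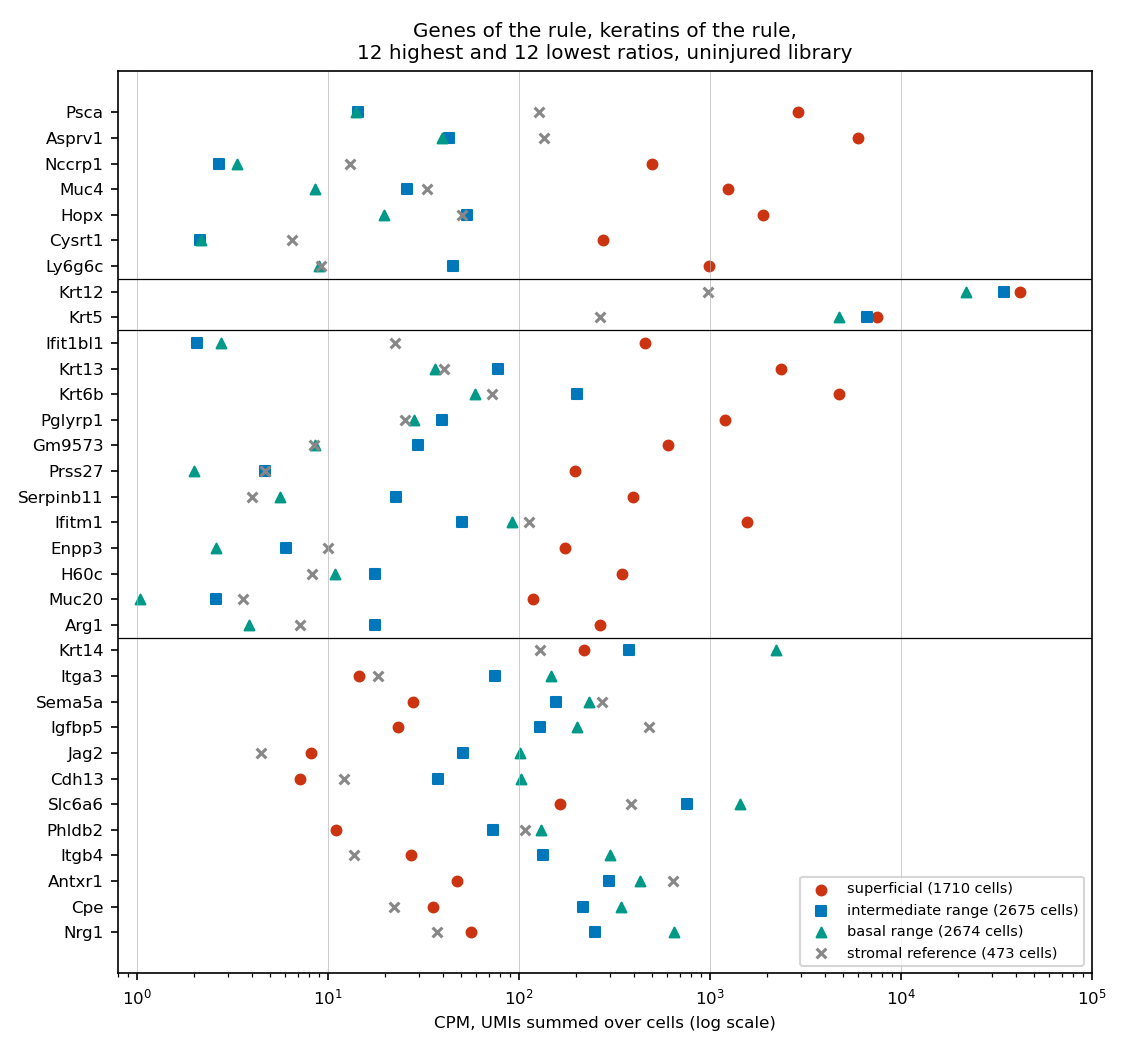
CPM (x axis, log scale, UMIs summed over the cells of a group) of the 7 surface genes, Krt12 and Krt5, and the 12 genes of highest and the 12 of lowest ratio (y axis). Symbols stand for superficial, intermediate-range, basal-range and stromal reference cells of the uninjured library. Circles for superficial cells lie to the right of the epithelial symbols in the upper 3 blocks and to the left of them in the lowest block.

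The 12 genes with the lowest ratios held integrin chains, a basal keratin, ligands and a transporter. The lowest was that of Nrg1 on the CPM + 5 scale. Nrg1, the ligand neuregulin of ERBB receptors, was at 56.6 CPM in superficial, 249.5 in intermediate-range and 648 in basal-range cells, 8.02-fold (7.71 to 8.34) higher in all other cells than in superficial cells. Itgb4, the integrin chain of hemidesmosomes, was at 27.2 CPM in superficial, 135 in intermediate-range and 299.8 in basal-range cells, and Itga3, a laminin-binding integrin chain, at 14.6 CPM in superficial, 75.004 in intermediate-range and 148 in basal-range cells. Phldb2, which anchors microtubules near such integrins, was at 11.1 CPM in superficial, 73.6 in intermediate-range and 131 in basal-range cells. Krt14, the basal partner keratin of Krt5, was at 221 CPM in superficial, 377 in intermediate-range and 2238 in basal-range cells. Krt14 and Itgb4 were also in the score that set the 2 ranges, so their order between the ranges is fixed by that choice.

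Jag2, a Notch ligand, was at 8.21 CPM in superficial, 51.0 in intermediate-range and 101 in basal-range cells. Slc6a6, the taurine transporter, was at 165 CPM in superficial, 762 in intermediate-range and 1447 in basal-range cells. Antxr1, a receptor that binds collagens, was at 47.6 CPM in superficial, 297 in intermediate-range and 429 in basal-range cells, and Cpe, carboxypeptidase E, at 35.6 CPM in superficial, 216 in intermediate-range and 342 in basal-range cells. Igfbp5, which binds insulin-like growth factors, was at 23.3 CPM in superficial, 129.8 in intermediate-range and 203 in basal-range cells. Sema5a, a guidance semaphorin, was at 28.04 CPM in superficial, 157 in intermediate-range and 232 in basal-range cells, and Cdh13, a cadherin anchored by a lipid, at 7.17 CPM in superficial, 37.9 in intermediate-range and 103 in basal-range cells. Each of these 12 genes was lower in superficial than in intermediate-range cells, and each was lower there than in the basal range. Jag2 and Cdh13 reached 10 CPM only in the other cells, so their direction was fixed by the minimum. At 5000 UMIs 13.7% of superficial cells had Nrg1, against 6.61% of stromal cells. For Antxr1 the shares were 13.3% and 92.3%, and stromal cells express Antxr1 at 641 CPM.

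Gene lists put these genes in groups, to be read beside the background of 5.93% higher and 12.6% lower and the median of -0.39. A gene that reached 10 CPM on only 1 side had its direction fixed by that minimum, and the list counts include such genes. Of keratins beside Krt5 and Krt12, 9 of the 12 measured genes were at least 2-fold higher and 1 at least 2-fold lower, with a median log2 ratio of 2.92, or 0.55 over all 22 listed with no minimum level. Krt80 was at 216 against 8.23 CPM in the other cells, Krt78 at 59.1 against 0.441 CPM, and Krt19, of simple and wet epithelia, at 73.3 against 3.49 CPM. The 9 higher keratins were Krt13, Krt6b, Krt80, Krt78, Krt6a, Krt19, Krt15, Krt4 and Krt16, and Krt14 was the lower one. Krt80, Krt78, Krt19 and Krt4 were under 10 CPM in the other cells, so their direction was fixed by the minimum. Of the cornified envelope list, 9 of the 12 measured genes were at least 2-fold higher and 0 at least 2-fold lower, with a median log2 ratio of 1.64, or 0.47 over all 32 listed. The small proline-rich Sprr1a was at 175 against 16.1 CPM and cornifelin (Cnfn) at 24.3 against 0.636 CPM. Among the cytolinkers and enzymes of the envelope, periplakin (Ppl) was at 1025 against 314 CPM, envoplakin (Evpl) at 530.3 against 175 CPM, sciellin (Scel) at 584 against 109 CPM and the cross-linker Tgm1 at 39.8 against 9.45 CPM. Cnfn and Tgm1 reached 10 CPM only in superficial cells, so their direction was fixed by the minimum. The skin envelope genes loricrin (Lor) at 0.477, filaggrin (Flg) at 0.664 and involucrin (Ivl) at 3.84 CPM were under the 10 CPM minimum, and 6 of the 32 listed genes had 0 UMIs.

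The surface epithelium list outside the rule had a median log2 ratio of 1.57. Calml3, a calmodulin-like protein of differentiated epithelia, was at 7765 against 2477 CPM, and Upk1b, a uroplakin, at 921 against 358 CPM. The lower gene was the transmembrane protease Tmprss11a, with its relatives Tmprss11d and Tmprss11e at 416 against 757 CPM and 129 against 149.8 CPM. Another relative, Tmprss11b, went the other way, at 189 against 138 CPM. Of Ly6 family genes beside Psca and Ly6g6c, 4 of the 12 measured genes were at least 2-fold higher and 4 at least 2-fold lower, with a median log2 ratio of 0.58. Lypd2 was at 10902 against 4069.5 CPM, the secreted Slurp1 at 6697 against 3825 CPM, Ly6g6e at 64.4 against 8.07 CPM and Ly6a at 69.9 against 13.1 CPM, whereas Lypd6 was at 4.27 against 30.04 CPM and Cd59a, an inhibitor of complement, at 4.29 against 16.5 CPM. Ly6g6e reached 10 CPM only in superficial cells and Lypd6 and Cd59a only in the other cells, so their direction was fixed by the minimum. Of corneal identity genes, 5 of the 18 measured genes were at least 2-fold higher and 2 at least 2-fold lower, with a median log2 ratio of 0.13. Cyp4a12b, a fatty acid hydroxylase, was at 725 against 147 CPM, and the lower ones were Tkt at 2558 against 7421 CPM and Apoe at 15.3 against 72.5 CPM. Of limbal and progenitor markers, 2 of the 10 measured genes were at least 2-fold higher and 2 at least 2-fold lower, with a median log2 ratio of -0.63. The higher ones were Krt15 and Krt19, and the lower ones Gpha2 (15.6 against 54.8 CPM) and Ifitm3 (15.5 against 67.6 CPM), both known from the limbus.

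Junction genes differed in direction. Of tight junction genes, 6 of the 20 measured genes were at least 2-fold higher and 2 at least 2-fold lower, with a median log2 ratio of 0.53. The claudins Cldn23 (77.3 against 1.97 CPM), Cldn3 (251 against 17.9 CPM), Cldn7 (1725 against 529 CPM) and Cldn4 (1441 against 552 CPM) were higher, with the scaffold Tjp3 at 99.9 against 25.2 CPM and the polarity protein Pard6b at 85.1 against 21.6 CPM. Cldn23 reached 10 CPM only in superficial cells, so its direction was fixed by the minimum. Cldn1 was at 29.5 against 66.6 CPM, and occludin (Ocln) at 57.5 against 41.1 CPM. Of desmosome genes, 0 of the 11 measured genes were at least 2-fold higher and 0 at least 2-fold lower, with a median log2 ratio of 0.71, which is 1.10 above that of all genes. Of basal adhesion genes and basal keratins, 1 of the 18 measured genes was at least 2-fold higher and 12 at least 2-fold lower, with a median log2 ratio of -1.69. The 1 higher gene was Krt15 at 3262 against 520.2 CPM, and the hemidesmosome collagen Col17a1 was at 348 against 1684 CPM.

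Of mucins and the enzymes that glycosylate them, 6 of the 9 measured genes were at least 2-fold higher and 0 at least 2-fold lower, with a median log2 ratio of 1.24, or 0.38 over all 20 listed. Muc15 was at 178 against 51.1 CPM, the galectin Lgals3, which cross-links mucins, at 1808 against 735 CPM, and the glycosyltransferases Galnt3 and St6galnac1 at 206 against 47.9 CPM and 316 against 131 CPM. Muc1 was at 5.06 CPM, under the minimum. Of genes of surface actin and microplicae, 7 of the 18 measured genes were at least 2-fold higher and 0 at least 2-fold lower, with a median log2 ratio of 0.86. Eps8, which caps and bundles actin, was at 265 against 12.1 CPM, its relatives Eps8l1 and Eps8l2 at 105 against 31.5 CPM and 270.5 against 91.3 CPM, and ezrin (Ezr) at 649.7 against 571 CPM.

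No gene of the cholesterol synthesis list was at least 2-fold lower. Of its genes, 12 of the 18 measured genes were at least 2-fold higher and 0 at least 2-fold lower, with a median log2 ratio of 1.28. Farnesyl diphosphate synthase (Fdps) was at 949 against 237 CPM, squalene epoxidase (Sqle) at 269 against 92.5 CPM and the sterol sensor Insig1 at 172 against 33.1 CPM. Hmgcs1 was at 435 against 304 CPM and the regulator Srebf2 at 131 against 119 CPM. Of lipid barrier and ceramide genes, 3 of the 13 measured genes were at least 2-fold higher and 2 at least 2-fold lower, with a median log2 ratio of 0.32. Ceramide synthase 3 (Cers3) was at 60.4 against 15.3 CPM and the fatty acid carrier Fabp5 at 1023 against 359.8 CPM, whereas Elovl4 and Pnpla1, needed for the ceramides of skin, were at 0.477 and 0.0829 CPM.

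Of proteases and their inhibitors, 9 of the 23 measured genes were at least 2-fold higher and 1 at least 2-fold lower, with a median log2 ratio of 0.66. Spink5, an inhibitor of kallikreins, was at 139 against 4.96 CPM, the kallikreins Klk11 and Klk10 at 30.7 against 2.12 CPM and 14.02 against 3.59 CPM, Prss22 at 175 against 15.8 CPM and Tmprss4 at 73.1 against 4.13 CPM. The lower gene was Tmprss11a, at 275 against 892 CPM. Spink5, Klk11, Klk10 and Tmprss4 reached 10 CPM only in superficial cells, so their direction was fixed by the minimum. Of antimicrobial and innate genes, 4 of the 9 measured genes were at least 2-fold higher and 2 at least 2-fold lower, with a median log2 ratio of 0.58. The defensin Defb1 was at 651 against 66.6 CPM, and the cytokines Il18 and Il1a at 264 against 36.7 CPM and 81.7 against 15.7 CPM, whereas Wfdc2 was at 56.4 against 263 CPM. Of ion and water transport genes, 5 of the 20 measured genes were at least 2-fold higher and 8 at least 2-fold lower, with a median log2 ratio of -0.37. The water channel Aqp5 was at 9476 against 3183 CPM and the sodium channel subunit Scnn1a at 32.7 against 5.55 CPM. Scnn1a reached 10 CPM only in superficial cells, so its direction was fixed by the minimum. The gap junction protein Gja1 was at 61.1 against 350.4 CPM, while its relative Gjb2 was at 105 against 35.1 CPM.

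Of EGF receptor ligands and regulators, 5 of the 16 measured genes were at least 2-fold higher and 3 at least 2-fold lower, with a median log2 ratio of 0.22. The 5 higher ones were the ligands Ereg (55.6 against 0.454 CPM), Areg (107 against 7.18 CPM), Btc (48.8 against 5.85 CPM), Hbegf (1164 against 443 CPM) and Tgfa (28.7 against 11.4 CPM). The receptor Egfr was at 179 against 329 CPM, and the lower ones were Nrg1, the receptor inhibitor Lrig1 (44.7 against 128 CPM) and Dusp6 (8.63 against 41.0 CPM), which dephosphorylates ERK. Ereg, Areg and Btc reached 10 CPM only in superficial cells and Dusp6 only in the other cells, so their direction was fixed by the minimum. Of Notch pathway genes, 0 of the 14 measured genes were at least 2-fold higher and 3 at least 2-fold lower, with a median log2 ratio of -0.42, beside -0.39 for all genes. The 3 lower ones were Jag2, Dll1 (6.39 against 56.0 CPM) and Lfng (2.07 against 14.8 CPM), 2 ligands and a modifier of the receptor, and Notch1, Notch2 and Notch3 were each within 2-fold. Jag2, Dll1 and Lfng reached 10 CPM only in the other cells, so their direction was fixed by the minimum. Of epithelial transcription factors, 7 of the 33 measured genes were at least 2-fold higher and 4 at least 2-fold lower, with a median log2 ratio of -0.17. Prdm1 was at 65.6 against 6.46 CPM, Elf3 at 1143 against 236 CPM, Mxd1 at 567 against 206 CPM and Grhl3 at 63.8 against 24.3 CPM. Prdm1 reached 10 CPM only in superficial cells, so its direction was fixed by the minimum. Trp63 was at 72.8 against 247 CPM and Pax6, the eye regulator, at 234 against 408 CPM, and Klf4 was at 1103 against 889.7 CPM.

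Further lists bear on the state of the cells. Of immediate early and heat shock genes, which cell release can induce, 0 of the 20 measured genes were at least 2-fold higher and 3 at least 2-fold lower, with a median log2 ratio of 0.00, with the AP-1 subunit Fos at 1972 against 2133 CPM and the stress factor Atf3 at 1399.7 against 1432 CPM. Of large-subunit ribosomal proteins, 0 of the 20 measured genes were at least 2-fold higher and 1 at least 2-fold lower, with a median log2 ratio of -0.67, and their UMIs summed to 34014 CPM, against 55137 in the basal range. Of cell death genes, 1 of the 11 measured genes was at least 2-fold higher and 3 at least 2-fold lower, with a median log2 ratio of 0.22, with Bik at 47.3 against 14.5 CPM as the higher one and Bax (20.7 against 68.6 CPM), Bcl2 (22.1 against 76.5 CPM) and Casp6 (14.8 against 44.6 CPM) as the lower ones. Of autophagy and nuclear breakdown genes, 3 of the 20 measured genes were at least 2-fold higher and 0 at least 2-fold lower, with a median log2 ratio of -0.13, with Wipi1, Map1lc3a and Gabarapl2 as the higher ones. Of oxidative stress genes, 2 of the 17 measured genes were at least 2-fold higher and 5 at least 2-fold lower, with a median log2 ratio of -0.70. The higher ones were Gsto1 and Gsta4 (8976 against 3491 CPM), both glutathione transferases, and the lower ones included the metallothioneins Mt1 (559 against 1430.3 CPM) and Mt2 (382 against 1222 CPM). Of glycolysis genes, 1 of the 15 measured genes was at least 2-fold higher and 1 at least 2-fold lower, with a median log2 ratio of -0.48. Of retinoid and aldehyde genes, 1 of the 11 measured genes was at least 2-fold higher and 0 at least 2-fold lower, with a median log2 ratio of -0.21. With no minimum level the medians were 0.14 for the Ly6 family list, 0.01 for the lipid barrier list, 0.15 for the antimicrobial list, 0.42 for the protease list, 0.49 for the microplica list and 0.05 for the EGF receptor list, and the cell death median was -0.00374. The medians of the transcription factor, autophagy and retinoid lists changed sign with centring by the median of ratios.

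**Figure D3:**
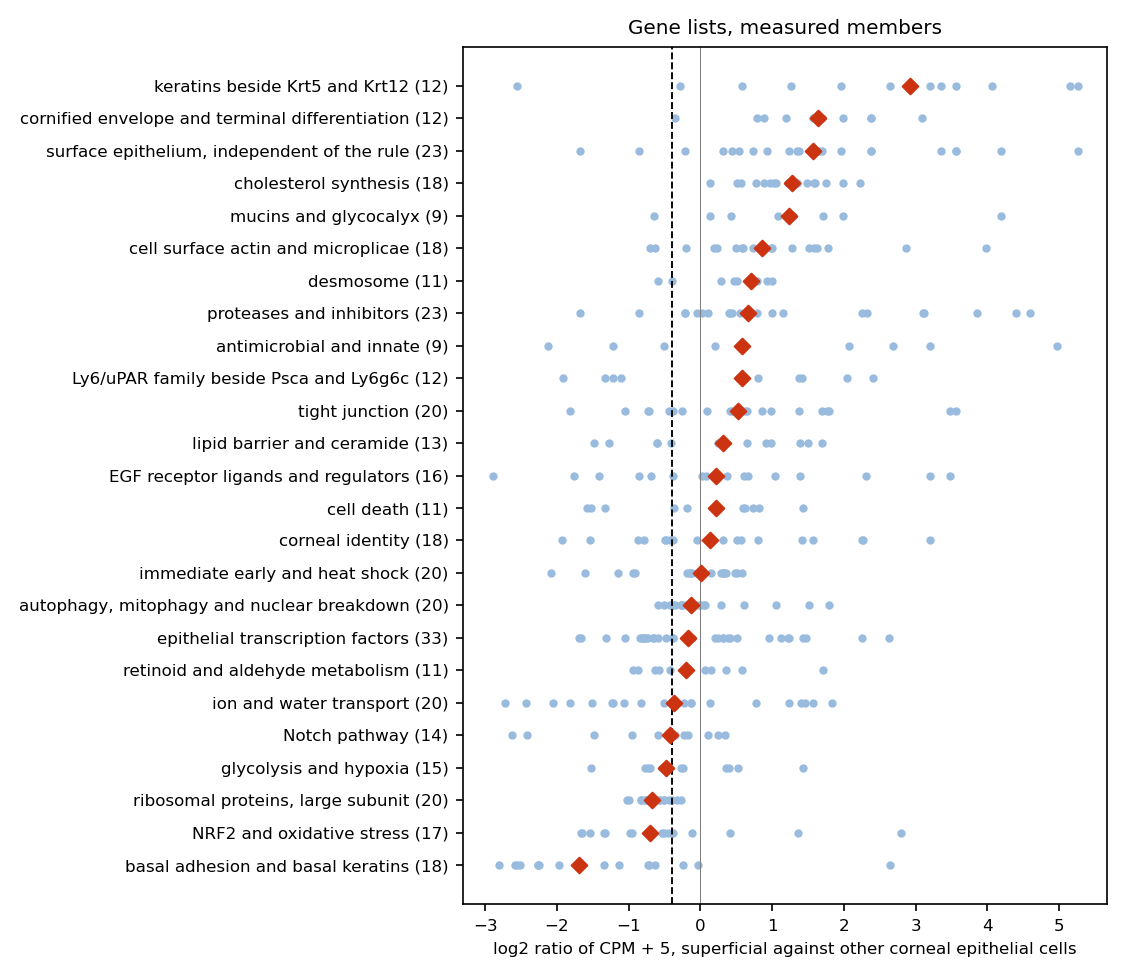
Log2 ratio of CPM + 5 in superficial against other corneal epithelial cells (x axis) for the measured genes of 25 lists (y axis, number measured in parentheses). Small points are genes, diamonds list medians, the grey line 0 and the dashed line the median of all 8285 measured genes at -0.39. The keratin and cornified envelope lists lie farthest to the right of the dashed line, and the basal adhesion list lies farthest to the left.

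Superficial cells were graded among themselves. From 4 to 7 of the 7 genes Krt13 went from 399 to 3692 CPM, Krt6b from 1008 to 7191, Mal from 2771 to 11212, and Krt78 from 3.02 to 102. Over the same steps Krt14 went from 470.3 to 96.1, Itgb4 from 68.3 to 9.08, Gja1 from 147 to 21.5 and Aldh3a1 from 10048 to 5829.9. Krt12 stayed between 40717 and 45705 CPM, and Klf4 between 995 and 1148. The genes named before Krt12 and Klf4 thus moved further in the same direction past the threshold. Psca was at 15.1, 30.4 and 112 CPM with 4, 5 and 6 genes and at 5253 with 7, whereas Hopx was at 307, 498, 974 and 3027. The count of genes fixes part of such steps for the 7 genes themselves. Median mitochondrial UMIs were 1.38% with 4 genes and 0.794% with 7.

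**Figure D4:**
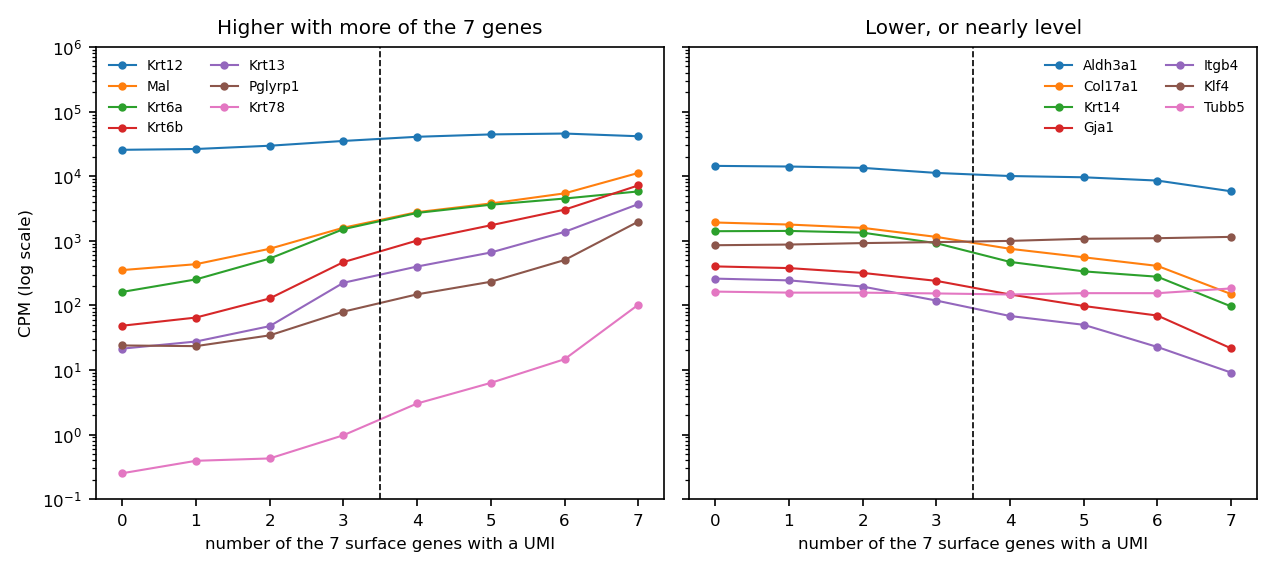
CPM (y axis, log scale) of 14 genes in uninjured corneal epithelial cells by the number of the 7 surface genes with a UMI (x axis), with the threshold of 4 genes as a dashed line. Mal, Krt6a, Krt6b, Krt13, Pglyrp1 and Krt78 are higher at 3 genes than at 0 and higher again at 7 than at 4. Aldh3a1, Col17a1, Krt14, Gja1 and Itgb4 are lower over the same steps, and Klf4 and Tubb5 are the flattest lines beside Krt12.

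Between cells with all 7 genes and cells with 4, 361 of 7723 measured genes were at least 2-fold higher with all 7 (4.67%) and 939 lower (12.2%), with a median log2 ratio of -0.40. This comparison was chosen after its values were seen. Ifit1bl1 was at 829 CPM with all 7 and 1.63 with 4, and Pbp2 at 171 and 0.813. Prss22 was at 303 and 13.8, Ifitm1 at 2684 and 193, and Pglyrp1 at 1977 and 148. In the other direction Dkk3, a Wnt pathway modulator, was at 10.6 and 97.5, and Col17a1 at 149 and 750.2. Ifit1bl1, at 2.07 CPM in the intermediate range, was thus not above that level in superficial cells with 4 of the genes.

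Krt15 varied among superficial cells in another way. Krt15 is a type I keratin usually listed with basal and limbal cells. Its variance over mean at 5000 UMIs was 57.1, against a median of 1.22 over 1430 genes, and second only to Malat1 at 60.7 among genes with a mean of at least 0.5 UMIs. 664 superficial cells had no Krt15 UMI at that depth, 607 had some, and 439 had 21 or more, the upper quartile. Cells with 21 or more were 25.7% of superficial, 2.43% of intermediate-range and 3.22% of basal-range cells, although Krt15 is part of the score that set the basal range. The Krt15-rich and Krt15-zero cells had median depths of 23608 and 23698 UMIs and doublet calls of 12.5% and 14.5%.

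Other basal and limbal genes differed in direction between Krt15-rich and Krt15-zero superficial cells. This split was chosen after the values of Krt15 were seen. Krt15-rich cells had Itgb4 at 11.5 and Col17a1 at 198 CPM, against 32.1 and 438 in Krt15-zero cells, and Krt14 at 234 against 211. The limbal marker Gpha2 was at 28.7 against 8.59, Krt17 at 32.3 against 4.29 and Ifitm3 at 19.5 against 13.2. Of 7077 measured genes, 30 were at least 2-fold higher (0.424%) and 39 at least 2-fold lower (0.551%) in them. The largest ratio beside Krt15 was that of Krt4, a keratin of conjunctiva and other wet epithelia, at 191 against 3.36 CPM. Among all 1710 superficial cells, 50% of the Krt4 UMIs lay in 19 cells and 50% of the Krt17 UMIs in 7. The levels of Krt4 and Krt17 thus rested on few cells and need not hold for Krt15-rich cells in general. Cmah, which makes a sialic acid, was at 194 against 47.0, Ceacam1, an adhesion molecule of apical membranes, at 256 against 103, Krt13 at 3588 against 1556 and Krt19 at 114 against 43.9. Krt12 was at 35441 against 46132, and Tkt, a transketolase abundant in cornea, at 1497 against 3122. Among the genes lowest in Krt15-rich cells were Lsamp at 60.8 against 239.6, fibronectin (Fn1) at 21.9 against 77.5 and glycogen phosphorylase (Pygl) at 35.7 against 116. The 7 surface genes were each somewhat higher in Krt15-rich cells, with Asprv1 at 6875 against 5389, and 59.0% of them had all 7 genes, against 42.0%. Where in the tissue these cells lay was not measured.

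The same rule was then applied to the 2 injured libraries. It found 59 barcodes with saline, 61.5% of 96 under the other filters (51.0 to 71.2%) and 0.866% of all barcodes. With losartan it found 382, 53.5% of 714 (49.8 to 57.2%) and 6.49% of all barcodes. The shares among corneal epithelial barcodes lie above the uninjured 24.2% while the shares of all barcodes lie below 12.9%. Median depths of these cells were 61310 and 39776 UMIs, and at 5000 UMIs per cell the shares were 30.2% and 29.97%, against 17.0% uninjured. A further 190 saline and 132 losartan barcodes failed only the keratin filter, so the denominators move with Krt12. In the saline library 10 cells held 38.5% of the summed UMIs, so medians over cells, in UMIs per 10000, are given after CPM.

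Krt14, Krt16 and Krt17 had higher CPM in both injured libraries. The 7 surface genes had lower CPM, but the rule read them, and in deeper cells 4 genes with a UMI are reached at a lower level, so their levels are a description of the selected cells. Values follow in the order uninjured, saline, losartan. Psca was at 2889.6, 969 and 791 CPM (medians 0.991, 1.03 and 0.365), Asprv1 at 6001, 1261 and 1320.2 CPM (medians 22.04, 1.36 and 1.39), Muc4 at 1247, 346 and 593 CPM (medians 8.85, 1.03 and 3.15) and Hopx at 1909.8, 572 and 1102 CPM (medians 14.4, 5.04 and 9.33). Nccrp1 was at 501, 278 and 346 CPM (medians 1.14, 1.17 and 1.23), Ly6g6c at 997, 128 and 259 CPM (medians 9.13, 0.377 and 1.15) and Cysrt1 at 276, 118 and 143 CPM (medians 0.923, 0.932 and 0.855). The medians of Nccrp1 and Cysrt1 thus differed little between libraries. The Psca level in saline rested on few cells, with 50% of its UMIs in 4 of 59, and stromal cells of that library had Psca at 601 CPM. Krt12 was at 42339, 15557 and 27369 CPM, with medians of 436, 158 and 269 per 10000. Krt14 was at 221, 13648 and 12105 CPM, with medians of 0.414, 131 and 89.0, and stromal cells had Krt14 at 129, 2344 and 1701 CPM in the 3 libraries. Superficial cells under the rule thus had little Krt14 in the uninjured library and abundant Krt14 in both injured ones. Krt17, a keratin induced in wounds, was at 11.1, 2539.7 and 817 CPM, with medians of 0, 14.4 and 1.76. Krt16 was at 759, 9694 and 12695 CPM (medians 1.03, 94.3 and 111). The envelope protein Sprr1a was at 175, 8618 and 4186 CPM, with medians of 0.255, 68.5 and 27.5, and Arg1 at 266, 3121 and 2124 CPM (medians 1.55, 26.1 and 18.0). Aldh1a3, which makes retinoic acid, was at 92.2, 2712 and 2907 CPM, with medians of 0.788, 24.7 and 24.1. The chemokine Ppbp was at 0.228, 14384 and 4083 CPM (medians 0, 89.1 and 15.5), with stromal cells of the injured libraries at 1484 CPM with saline and 685 with losartan. The neutrophil gene S100a9 was at 4.19, 217 and 80.2 CPM in the same cells and at 0, 324 and 34.1 in stromal cells, and its part in these levels was not tested.

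Lypd2 and Slurp1, abundant Ly6 family members of the uninjured surface, were close to 0 with saline. Lypd2 was at 10902, 0.227 and 27.99 CPM (medians 100.4, 0 and 0), with 1 UMI in the 59 saline cells, and Slurp1 at 6697, 0.680 and 91.1 CPM (medians 63.5, 0 and 0), with 3 UMIs. Adh7, an alcohol dehydrogenase that oxidizes retinol, was at 807, 1.36 and 6.57 CPM (medians 6.02, 0 and 0), and Aldh3a1 at 7478, 699.8 and 2290.0 CPM (medians 70.2, 2.48 and 15.0). The other keratins went both ways. Krt5 was at 7530.1, 6366 and 6054 CPM (medians 78.2, 66.9 and 58.8), Krt6b at 4761, 7416 and 8494 CPM (medians 44.0, 66.4 and 85.5), Krt6a at 4767, 11327 and 11090.3 CPM (medians 50.8, 120.0 and 108), Krt15 at 3262, 8414 and 4663 CPM (medians 2.94, 84.4 and 12.9) and Krt13 at 2366, 782 and 842 CPM (medians 7.78, 1.48 and 0.759). Over all measured genes 9.27% were at least 2-fold higher and 10.6% lower with saline than uninjured, 7.18% and 11.5% with losartan than uninjured, and 0.78% and 1.9% with losartan than saline. The first pair of comparisons shares the uninjured library. The median gene stood at -0.06, -0.18 and -0.12 (log2). With centring by the median of ratios, 528 to 849 became 634 to 626 genes higher to lower for losartan against uninjured and 53 to 129 became 73 to 102 for losartan against saline. Against the uninjured library, glycolysis and hypoxia genes numbered 13 higher and 2 lower of 20 measured with saline (median log2 ratio 1.83) and 9 and 1 of 16 with losartan (1.10). Corneal identity genes numbered 3 higher and 10 lower of 18 measured with saline (median log2 ratio -1.69) and 4 and 9 of 18 with losartan (-1.03). Surface epithelium genes outside the rule numbered 9 higher and 5 lower of 26 measured with saline (median log2 ratio 0.10) and 8 and 6 of 25 with losartan (0.03). Cholesterol synthesis genes numbered 0 higher and 4 lower of 18 measured with saline (median log2 ratio -0.26) and 0 and 1 of 18 with losartan (-0.24). Whether these barcodes are the same layer as in the uninjured eye was not tested, and injury, mouse and library cannot be told apart.

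**Figure D5:**
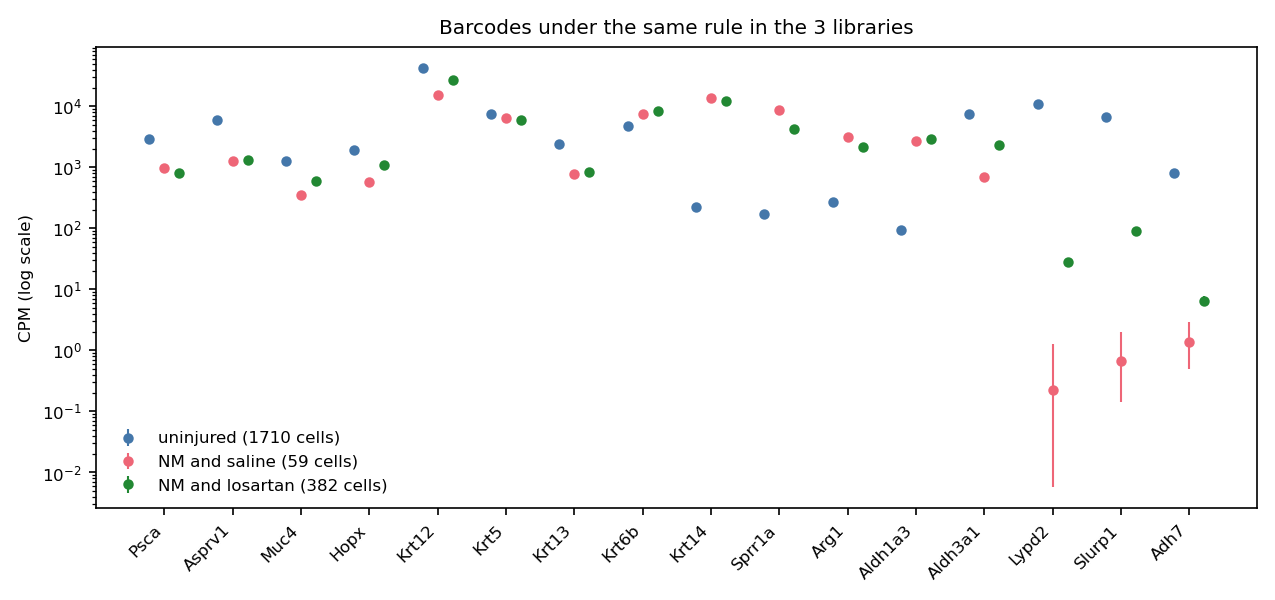
CPM (y axis, log scale) of 16 genes (x axis) in barcodes under the same rule in the uninjured library (1710 cells), the library with NM and saline (59) and the library with NM and losartan (382). Bars are exact 95% Poisson intervals for counting error and are mostly smaller than the points. Lypd2, Slurp1 and Adh7 lie far lower in both injured libraries, and Krt14, Sprr1a, Arg1 and Aldh1a3 lie higher.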

How the data were processed

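Droplet single-cell RNA was measured in 3 libraries of mouse cornea and limbus, 1 mouse each. Each library was deposited as a sparse matrix of UMI counts, genes by cell barcodes. Per the file headers the authors made these counts with Cell Ranger 8.0.0, and the build was GRCm38 per the submitters' processing notes. The annotation release, intron counting, use of strand and doublet removal by the authors are not given in the sources used here. Each matrix held 32285 genes, 38 symbols stood on more than 1 row, and gene positions are those of GENCODE release M 21. The uninjured library had 177003042 UMIs in all, the saline library 83155441 and the losartan library 92753670.

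The members and gene lists were chosen with earlier results of these data known. For each group of cells, summed UMIs were scaled to CPM. CPM carry exact Poisson, ratios exact conditional binomial and shares exact Clopper-Pearson 95% intervals, for counting error alone. A gene was measured if it reached 10 CPM on either side, and log2 ratios used CPM + 5. For per-cell values each cell was thinned once to 5000 UMIs by seeded draws without replacement. Doublets were scored against 2 simulated doublets per barcode over 30 neighbours and 30 components of 1500 variable genes. The highest scores were marked at 0.8% per 1000 barcodes and kept in the main results. With 1 library per group no test was run and no p-value computed. The scripts were tested on simulated counts with known changes.

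Named genes were those of the rule, the 12 highest and 12 lowest ratios, and in each list the 3 highest, 3 lowest and 3 most abundant. Across libraries they were the 8 highest and 8 lowest ratios. Genes whose upper 50% of UMIs lay in fewer than 10 cells were left out of the 12 and the 8, but not out of the lists. These other genes were chosen after their values were seen: Ceacam1, Cmah, Dkk3, Eps8l1, Eps8l2, Evpl, Fn1, Grhl3, Il1a, Klk10, Klk11, Krt16, Krt78, Mal, Malat1, Mt1, Mxd1, Notch1, Ocln, Pard6b, Pax6, Pbp2, Ppl, Prss22, Pygl, S100a6, Sqle, Tgfa, Tgm1, Tmprss11b, Tmprss4, Tubb5 and Upk1b. So were Elovl4, Flg, Ivl, Krt7, Lor, Muc1 and Pnpla1, list genes under the minimum level. The comparisons of all 7 with 4 genes and of the Krt15 ranges were also chosen then. Alternatives were other thresholds of the rule, thinned cells, deeper cells, a stricter mitochondrial filter, removal of doublet calls, per-cell means, CPM + 1, no minimum level and median-of-ratios centring. Scripts ran in Python 3.11.15 with numpy 2.4.6, scipy 1.17.1, pandas 2.3.3, scikit-learn 1.9.0 and matplotlib 3.10.9.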

Additional observations from a re-analysis of the deposited data

How the results depend on the processing

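The share of superficial cells moved with the rule and with depth. With at least 3 of the 7 genes it was 32.3% uninjured, 75% with saline and 64.3% with losartan. With at least 5 it was 18.9% uninjured and 42.7% with losartan, and on cells thinned to 5000 UMIs it was 17.0%, 30.2% and 29.97%. Among cells with at least 10000 UMIs the uninjured share was 27.6%. Without simulated-doublet calls the shares were 23.7%, 57.6% and 54.3%. The 491 higher genes became 801 with median-of-ratios centring. The 1044 lower genes became 405 with that centring, 1617 with the thinned rule and 1596 with CPM + 1. The number of lists with a median at least 1 (log2) above that of all genes was 8, and 2 with no minimum level, where genes near 0 enter the lists. The cause of the other moves was not tested. Between 22 and 25 of 25 list medians kept their sign. Leaving out a replicate could not be done with 1 library per group. Thinning to 5000 UMIs limits statements on genes under about 1 UMI per cell. No paired analysis was possible because each group has 1 library, and the number 1 that all carry was given in accession order.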
